A study of Homo sapiens with 4 samples.

Results

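Cancer-testis antigens are proteins whose genes are normally active in germ cells of the testis and silent in most other adult tissues, and which many tumours switch on again. The genes described here are those listed as protein-coding whose symbol begins with MAGEA, MAGEB or MAGEC and a digit, GAGE, PAGE and a digit, XAGE, SSX and a digit, CTAG, CT45A or SPANX, or is PRAME, DDX43, SYCP1 or TEX14. The rule found 37 of the 32673 genes listed, 29 of them on the X chromosome and 8 elsewhere. It found no SPANX gene and no SYCP1, which were not analysed here. It also takes in SSX2IP, which encodes a protein that binds SSX2 and is itself a centrosome and cell junction protein, and 4 CTAGE genes, a separate family named after an antigen of cutaneous T-cell lymphoma.

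RNA of TF1-BA cells, which are sensitive to imatinib, was compared with RNA of their imatinib-resistant derivative TF1-BAR, with 2 libraries for each line. TF1 is a human erythroleukaemia line that depends on granulocyte-macrophage colony-stimulating factor, and both lines carry BCR-ABL, the fusion kinase of chronic myeloid leukaemia, introduced by gene transfer. Both were grown with this factor (2 ng/mL by the labels) and each library came from 10000000 cells. The methods of the paper give a higher concentration of the factor than the labels do. The resistant line was selected by prolonged culture with imatinib, a BCR-ABL inhibitor, and the labels give 2 μM imatinib for its medium. The sources used here do not say whether the drug was still present at RNA extraction, so exposure to the drug and resistance cannot be told apart. The labels title the resistant libraries "VECTOR" while naming them TF1-BAR, and any effect of a control vector would be part of each difference. Each line is a single culture history, and nothing says that its 2 libraries came from separate cultures, so that p-values measure only the spread between these libraries, which may be technical.

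The MAGE genes of families A, B and C encode proteins with a shared MAGE homology domain, and several of them bind RING-type ubiquitin ligases. GAGE, PAGE, XAGE and SSX proteins are small, largely disordered or nuclear proteins, also encoded in clusters of near copies on the X chromosome, while PRAME is a leucine-rich repeat protein that serves as a substrate receptor of a CUL2 ubiquitin ligase. In somatic cells most of these promoters are held silent by methylation of the cytosines in CG dinucleotides, and drugs that remove DNA methylation are known to switch many of them on. DNA methylation was not measured in these cells.

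The promoter sequences of the 4 genes that passed the test, with MAGEA12 beside its relatives, are shown because CG methylation in these stretches is where such genes are usually controlled. They are the 150 bases before the annotated start, 5′ to 3′ in the direction of transcription, from RefSeq on GRCh38.p14, with each CG in capitals. MAGEA3 lies at chrX:152698644-152698793 on the plus strand, MAGEA6 at chrX:152769690-152769839 on the minus strand, MAGEA12 at chrX:152733607-152733756 on the plus strand, GAGE2A at chrX:49589346-49589495 on the plus strand and PAGE1 at chrX:49695985-49696134 on the minus strand.
MAGEA3: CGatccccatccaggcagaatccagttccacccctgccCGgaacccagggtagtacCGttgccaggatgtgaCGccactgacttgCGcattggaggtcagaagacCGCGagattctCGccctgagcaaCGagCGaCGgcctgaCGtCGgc
MAGEA6: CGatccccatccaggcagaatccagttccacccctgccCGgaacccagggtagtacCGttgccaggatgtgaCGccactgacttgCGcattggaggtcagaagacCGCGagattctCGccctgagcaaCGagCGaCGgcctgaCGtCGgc
MAGEA12: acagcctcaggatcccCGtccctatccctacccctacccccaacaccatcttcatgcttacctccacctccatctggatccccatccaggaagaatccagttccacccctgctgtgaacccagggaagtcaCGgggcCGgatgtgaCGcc
GAGE2A: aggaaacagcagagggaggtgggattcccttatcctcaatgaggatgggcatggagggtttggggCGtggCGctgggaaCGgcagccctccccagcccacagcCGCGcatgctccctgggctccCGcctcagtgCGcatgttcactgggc
PAGE1: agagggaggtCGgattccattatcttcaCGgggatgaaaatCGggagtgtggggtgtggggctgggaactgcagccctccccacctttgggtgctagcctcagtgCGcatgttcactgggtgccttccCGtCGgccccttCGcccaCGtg

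The MAGEA3 and MAGEA6 stretches are the same, and so are their whole 300-base RefSeq windows, which run from 250 bases before the start to 50 after it. The windows of PAGE1 and GAGE2A were 65.7% identical, with a longest shared run of 24 bases. A window was found for 29 of the 37 genes and not for MAGEA1, MAGEA10, MAGEB17, CT45A3, CTAG1B, CTAG2, CTAGE5 and TEX14. The windows of MAGEA3 and MAGEA6 held 19 CG dinucleotides, those of PAGE1 and GAGE2A 13 and that of MAGEA12 9, against a median of 14 over 35116 RefSeq windows. The letters CCGGAA, the core of ETS factor sites, were searched on both strands and stood in the windows of MAGEA3, MAGEA6, MAGEB6 and PRAME, and in 17.25% of all windows. The letters CACGTG, an E-box whose reverse complement is itself, stood in those of PAGE1, GAGE2A, PAGE2B, PAGE5, XAGE3, CTAGE4, CTAGE9 and CTAGE15, and in 7.26% of all windows. These matches describe the sequence only.

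The libraries held 18042299 and 15465497 fragments in TF1-BA cells and 15761642 and 16074303 in TF1-BAR cells, as recovered from the deposited FPKM, which are fragments scaled to transcript length and library size. Over all genes, 737 of 15519 tested were called, meaning that the adjusted p in limma was under 0.05 and the log2 fold change at least 1 in size, with 474 higher and 263 lower in TF1-BAR cells (359 and 338 after quantile normalization). All 13 progenitor and erythroid markers looked at were above the filter, among them CD34 and KIT, which were called higher in TF1-BAR cells. Of the testis markers, the germ cell gene DDX4 was at no more than 3 fragments in any library, SYCP3 at 4 to 11 and ACRV1 at 6 to 10, and their summed FPKM was 0.243 to 0.453 in all 4 libraries. T-cell genes CD3E and CD3G did not exceed 3 fragments, although CD3D was called lower (log2 fold change -1.64). Of 4 listed markers of Sertoli and Leydig cells, WT1 was expressed at 6.82 to 7.32 FPKM and AMH had 21 to 67 fragments per library. Of 6 markers of monocytes and neutrophils, LYZ was expressed at 13.6 to 16.5 FPKM and CSF3R had 76 to 139 fragments per library. These 2 of each list were tested and 0 were called by limma. An unadjusted p under 0.05 was reached by 0 and 1 of them (42.2% of all genes tested), limma voom on recovered fragments called 0 and 1 (9.63% of all genes), and of 5 of fibroblasts LUM was called higher (1.20), a call lost when any of the 4 libraries was left out (adjusted p = 0.0603 to 0.0788). LUM passed the filter only through TF1-BAR cells, so that it had to be higher there. The part of these differences in the results was not tested.

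Expression was concentrated in a few families. The MAGEA genes had the highest summed level, with 28.0 and 28.5 FPKM in TF1-BA cells and 65.0 and 58.8 in TF1-BAR cells. Their group mean was 28.3 ± 0.354 (SD, n = 2) in sensitive and 61.9 ± 4.44 (SD, n = 2) in resistant cells, 2.19-fold higher in the latter. PRAME was at 16.3 to 17.6 FPKM in all 4 libraries. The PAGE genes summed to 8.14 and 7.70 FPKM in TF1-BA cells and to 0.836 and 1.08 in TF1-BAR cells. The 6 MAGEB genes together stayed between 0.991 and 1.44 FPKM, and the 2 MAGEC genes between 1.56 and 2.23. The CT45A, CTAG, SSX and XAGE families did not exceed 3 fragments for any gene in any library.

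**Figure D1:**
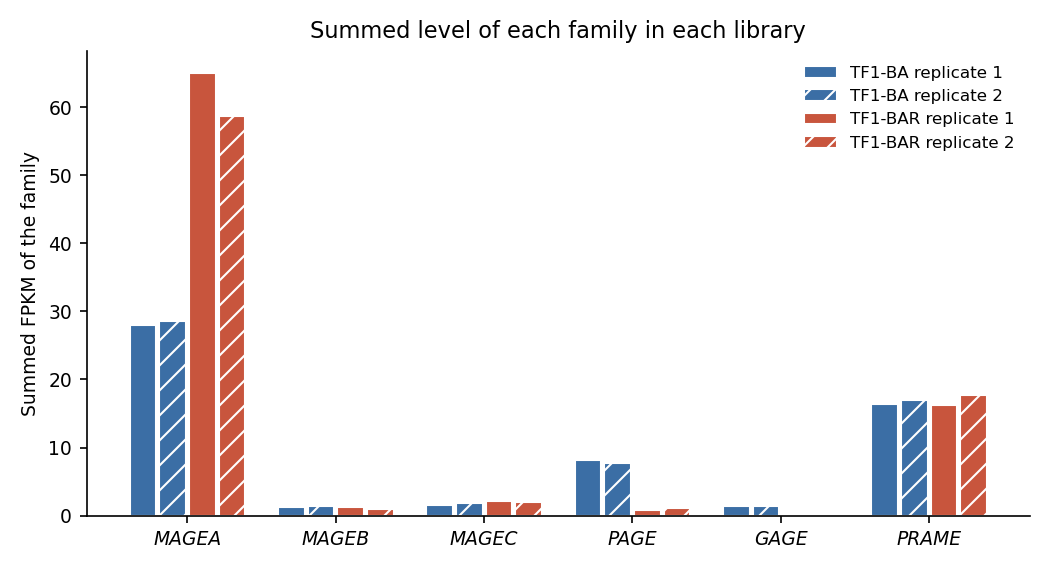
Summed FPKM of the genes of each family in each library, bars from 0, with TF1-BA in blue, TF1-BAR in red and replicate 2 hatched. The MAGEA bars reach 28.0 and 28.5 in TF1-BA and 65.0 and 58.8 in TF1-BAR cells, the PAGE bars fall from 8.14 and 7.70 to 0.836 and 1.08, GAGE is at 0 in both TF1-BAR libraries, and the bars of PRAME stand at like heights in all 4.

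Of the 37 genes, 35 were above 0 in at least 1 library, 22 exceeded 3 fragments in a library, and 10 had a mean of at least 0.5 FPKM and were tested. Of these 10, 4 were called, 2 higher (MAGEA3 and MAGEA6) and 2 lower (PAGE1 and GAGE2A), where 4.75% of all genes tested were called, 3.05% higher and 1.69% lower. PAGE1 and GAGE2A were at 0 in both TF1-BAR libraries and passed the filter only through TF1-BA cells, so that they had to differ. An adjusted p under 0.05 without the fold threshold was reached by 6 of the 10, 3 in each direction, against 26.9% of all genes. The libraries of the 2 lines did not overlap for 8 of the 10, against 69.3% of all genes tested, and 3 of the 8 (PAGE1, GAGE2A and PAGE2B) passed the filter only through the line where they were higher. The median log2 fold change of the 10 was 0.229, and that of all genes tested 0.0658.

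**Figure D2:**
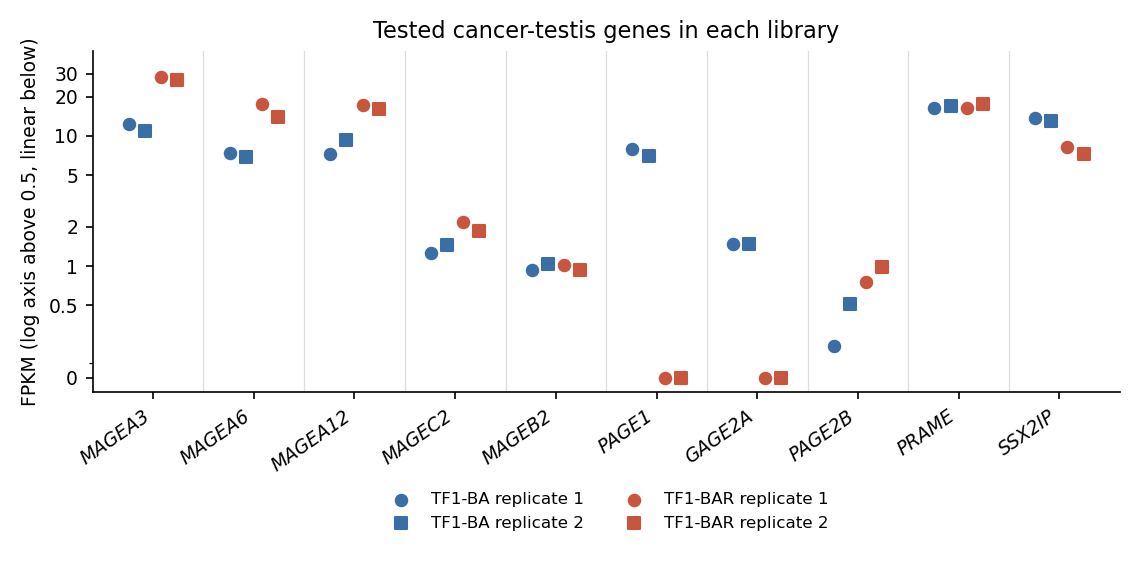
FPKM of the 10 tested genes in each library, on an axis that is logarithmic above 0.5 and linear below it, with TF1-BA in blue, TF1-BAR in red, circles for replicate 1 and squares for replicate 2. The red points lie above the blue for MAGEA3, MAGEA6, MAGEA12, MAGEC2 and PAGE2B, below them for PAGE1, GAGE2A and SSX2IP, and among them for MAGEB2 and PRAME.

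MAGEA3, MAGEA6 and MAGEA12 made up 95.3% to 97.1% of the summed MAGEA level in every library. MAGEA3 (ENSG00000221867, positions 152698752 to 152702347 of chromosome X), whose protein binds the ubiquitin ligase TRIM28, was at 12.4 and 10.96 FPKM in TF1-BA cells and at 28.4 and 26.9 in TF1-BAR cells. It rose 2.37-fold in mean FPKM, with a log2 fold change of 1.21 ± 0.0867 (SE) and an adjusted p of 0.00409 in limma, and was called in each of the 15 other settings. Both resistant libraries lay above both sensitive ones.

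MAGEA6 (152766136 to 152769747), the close copy of MAGEA3, was at 7.32 and 6.87 FPKM in TF1-BA cells and at 17.7 and 14.0 in TF1-BAR cells, with no overlap between the lines. Its log2 fold change was 1.10 ± 0.126 (SE), with an adjusted p of 0.00847 in limma. The call was lost without TF1-BA replicate 1 (adjusted p = 0.0524), without TF1-BA replicate 2 (adjusted p = 0.0579) and without TF1-BAR replicate 1 (log2 fold change 0.94), and also without the filter on low values (adjusted p = 0.0721), all in limma. The canonical transcripts of MAGEA3 and MAGEA6 are 98.6% identical over 1682 bases, and 27.8% of the 150-base stretches of MAGEA3 transcripts occur in MAGEA6 transcripts as well. Fragments may therefore have been split between the 2 genes by the counting, and MAGEA6 stood at 52.2% to 62.7% of the MAGEA3 level in all 4 libraries.

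MAGEA12 (152733779 to 152737669) was at 7.30 and 9.35 FPKM in TF1-BA cells and at 17.1 and 16.1 in TF1-BAR cells. The groups did not overlap, the log2 fold change was 0.96 ± 0.129 (SE) and the adjusted p 0.0110 in limma, so that it stayed just under the fold threshold and was not called. It was called without TF1-BA replicate 2, at a log2 fold change of 1.13, after rescaling to a common FPKM sum, at 1.03, and by limma voom on recovered fragments, at 1.01. Only 0.95% of its 150-base stretches occur in another gene, which separates it from MAGEA3 and MAGEA6. The pseudogene CSAG4 overlaps it on the same strand, at 0.434 FPKM in TF1-BA cells and 0.997 in TF1-BAR cells.

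**Figure D3:**
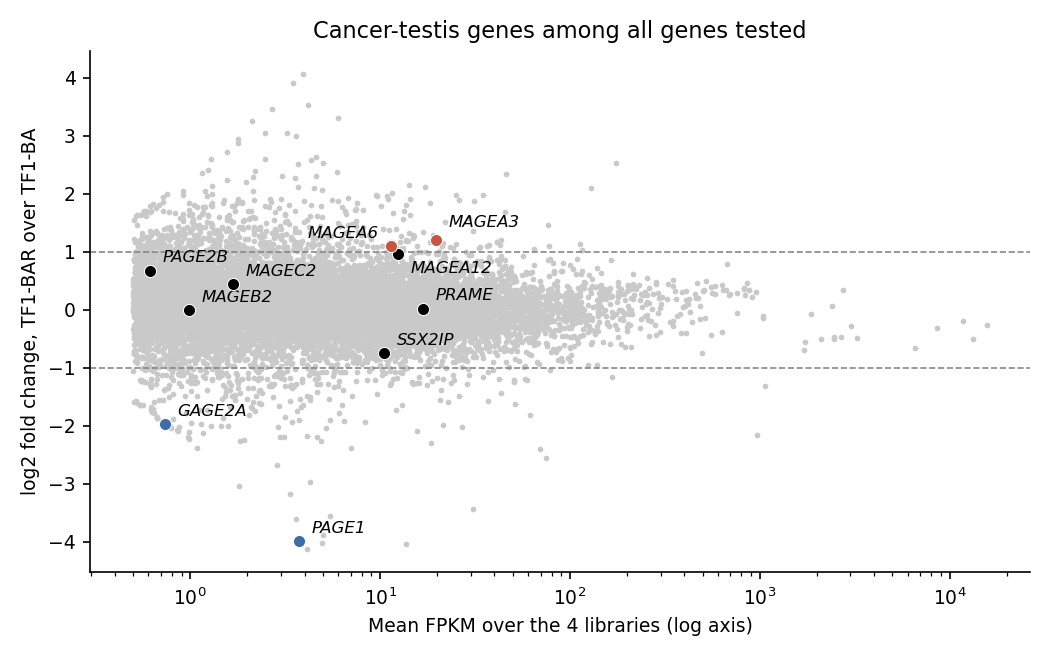
Log2 fold change (TF1-BAR over TF1-BA) against mean FPKM on a log axis for the 15519 genes tested in grey, with the 10 cancer-testis genes tested in red where called higher, in blue where called lower and in black otherwise, and dashed lines at a log2 fold change of 1 and -1. MAGEA3 and MAGEA6 lie just above the upper line, MAGEA12 just under it, and PAGE1 at -3.99 and GAGE2A at -1.98 below the lower line.

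The other MAGEA genes were below the filter and are given in fragments. MAGEA1, the first of these antigens to be described, had 5 and 6 fragments in sensitive and 17 and 15 in resistant cells, a ratio of 3.06 with a 95% exact interval of 1.504 to 6.73 that covers counting error only. MAGEA2 had 9 and 11 against 19 and 23 (ratio 2.21, 1.27 to 3.97) and MAGEA2B 5 and 6 against 18 and 13 (ratio 2.97, 1.45 to 6.54). In all 3 genes both resistant libraries were higher, but MAGEA2 and MAGEA2B have identical canonical transcripts and share 88.1% and 77.9% of their 150-base stretches with other genes, so their fragments are not independent. All 3 were called when recovered fragments were tested with limma voom, with log2 fold changes of 1.54, 1.12 and 1.48 and adjusted p of 0.0144, 0.0341 and 0.0204, a test that called 7 of the 13 genes of the set that it took in and 9.63% of all genes. MAGEA1 and MAGEA2B passed its filter, a mean of at least 10 fragments, only through TF1-BAR cells, so that they had to be higher there. In limma on FPKM without the filter none of the 3 passed, with adjusted p of 0.0921, 0.156 and 0.142.

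MAGEA4 went the opposite way, from 11 and 12 fragments in TF1-BA cells to 0 and 0 in TF1-BAR cells. Its mean FPKM was thus at least 3.68-fold lower, taking 3 fragments per library as the most that a count of 0 allows. Its log2 fold change without the filter was -0.53 with an adjusted p of 0.0527 in limma. An antisense gene, AF274855.1, overlaps its start and went from 0.183 FPKM to 0, and the library kit does not mark strand, so that reads of the 2 cannot be told apart where they overlap. MAGEA10 had 11 and 10 fragments against 7 and 9, and MAGEA8 had 4 and 6 against 2 and 2, with ratios whose intervals include 1 (0.391 to 1.61 and 0.0964 to 1.46). MAGEA11 was found with a single fragment.

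PAGE1 (ENSG00000068985, positions 49687450 to 49695993 of chromosome X, minus strand) showed the greatest difference of the set. It was at 7.92 and 7.00 FPKM in TF1-BA cells, or 95 and 72 fragments, and at 0 in both TF1-BAR libraries. Measured against 3 fragments per library, it was at least 26.3-fold lower in resistant cells. The fitted log2 fold change of -3.99 ± 0.129 (SE, adjusted p = 0.00108 in limma) depends on the pseudocount and is no bound. None of its 150-base stretches occurs in another gene. Its function is not established.

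GAGE2A (positions 49589529 to 49596827, plus strand), which lies 106.5 kb from PAGE1 between start sites, was also at 0 in both TF1-BAR libraries, after 1.47 and 1.47 FPKM in TF1-BA cells. These values rest on 7 and 6 fragments at the shortest gene length that gives whole numbers, or 14 and 12 at double that length, which is nearer to the annotated one. The bound is at least 2.06-fold lower, or at least 4.12-fold at the longer length. Its log2 fold change was -1.98 ± 0.194 (SE, adjusted p = 0.00654 in limma), and it fell under the filter without either TF1-BA library. The fitted fold change depends on the pseudocount, at -1.30 with 1 FPKM and -3.97 with 0.1 FPKM, and is no bound. GAGE genes are a tandem array of near-identical copies, and 28.9% of the 150-base stretches of GAGE2A occur in GAGE12C, GAGE12D, GAGE12F or GAGE12G, so that the fragments may come from another copy.

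The rest of the PAGE, XAGE and SSX genes gave little. PAGE2B was at 0.219 and 0.510 FPKM in TF1-BA cells and 0.751 and 0.982 in TF1-BAR cells, which is 2 and 4 fragments against 6 and 8. The difference of 0.68 ± 0.252 (SE) on the log2 scale had an adjusted p of 0.108 in limma, and at this depth no difference could be established. PAGE2, PAGE5 and XAGE3 had at most 1 fragment in any library, and SSX1 had 2 in TF1-BA replicate 1 and 0 elsewhere. SSX2IP, in contrast, was at 13.6 and 13.001 FPKM in TF1-BA cells and 8.20 and 7.27 in TF1-BAR cells, a log2 fold change of -0.75 ± 0.0882 (SE, adjusted p = 0.00884 in limma) below the fold threshold.

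PRAME (chromosome 22, positions 22547701 to 22559361) was among the most expressed genes of the set, at 16.5 and 17.0 FPKM in TF1-BA cells and 16.3 and 17.6 in TF1-BAR cells. The libraries of the 2 lines interleaved, and with 968 to 1121 fragments per library the depth was ample. Its log2 fold change was 0.018 ± 0.0745 (SE, adjusted p = 0.875 in limma), with a sign that turned under some alternatives. MAGEB2 also overlapped, at 0.929 and 1.04 FPKM against 1.02 and 0.927 (log2 fold change -0.010 ± 0.151 SE, adjusted p = 0.967 in limma). MAGEC2, whose protein like MAGEA3 binds TRIM28, was at 1.25 and 1.46 FPKM against 2.17 and 1.87. Its resistant libraries were both higher, but the log2 fold change of 0.44 ± 0.134 (SE) had an adjusted p of 0.0691 in limma.

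**Figure D4:**
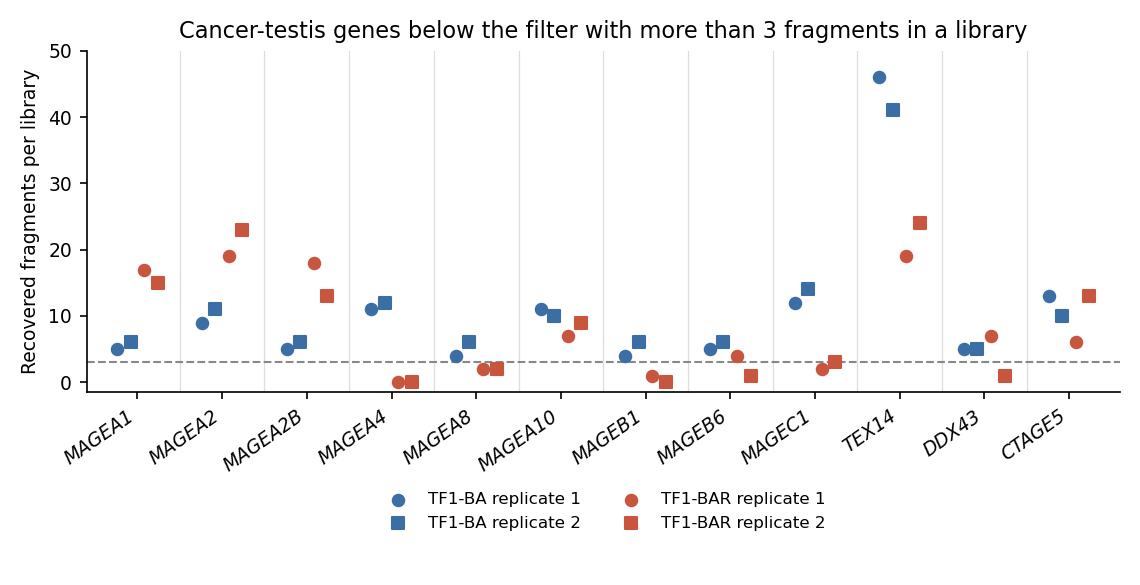
Recovered fragments per library of the 12 genes that were below the filter but exceeded 3 fragments (dashed line) in some library, with TF1-BA in blue, TF1-BAR in red, circles for replicate 1 and squares for replicate 2. Red points are higher for MAGEA1, MAGEA2 and MAGEA2B and lower for MAGEA4, MAGEA8, MAGEA10, MAGEB1, MAGEB6, MAGEC1 and TEX14, and the colours overlap for DDX43 and CTAGE5.

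Among the low MAGEB, MAGEC and single genes, MAGEC1 had 12 and 14 fragments in TF1-BA cells and 2 and 3 in TF1-BAR cells (24 and 28 against 4 and 6 at double the gene length, nearer to the annotation). The ratio was 0.202 with an interval of 0.0607 to 0.536, or 0.0917 to 0.403 at the longer length, and the adjusted p without the filter was 0.0885 in limma. MAGEC1 thus stood opposite to MAGEC2 in these libraries, a difference that was not tested. TEX14, needed for the intercellular bridges of germ cells, had 46 and 41 fragments against 19 and 24 (ratio 0.520, 0.352 to 0.758), with an adjusted p of 0.134 in limma without the filter and 0.0199 in limma voom at a log2 fold change of -0.93, short of the fold threshold. MAGEB1 had 4 and 6 against 1 and 0 (ratio 0.105, 0.00243 to 0.740).

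The intervals of the remaining low genes all included 1. MAGEB6 had 5 and 6 fragments against 4 and 1, and the RNA helicase gene DDX43 had 5 and 5 against 7 and 1. CTAGE5, annotated as MIA2 in a later release, had 13 and 10 against 6 and 13. CTAGE9, CTAG2 and MAGEB10 did not exceed 3 fragments, CT45A1 did not exceed 2, and CT45A3, CTAG1B, MAGEB16 and MAGEB17 did not exceed 1. CTAGE4 and CTAGE15 were at 0 in all libraries. For CTAG1B, which encodes the antigen NY-ESO-1, every 150-base stretch occurs in CTAG1A or CTAG2, so its value cannot be assigned to 1 gene.

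The called genes lie in 2 places on the X chromosome. In the MAGEA3 and MAGEA6 region, 10 other genes within 500 kb of MAGEA3 were tested, and 4 were called, all higher, namely MAGEA6, CSAG1, CSAG3 and GABRA3, where 3.05% of all genes tested were called higher. CSAG1, a chondrosarcoma-associated antigen gene transcribed away from MAGEA12 from a start 44 bases off, was at 6.14 and 5.80 FPKM in TF1-BA cells and 15.0 and 17.4 in TF1-BAR cells (log2 fold change 1.37 ± 0.0978 SE, adjusted p = 0.00409 in limma). CSAG3, which has a near copy in CSAG2 and is placed likewise 37 bases from MAGEA2, was at 2.81 and 2.27 against 6.44 and 6.78 (1.23 ± 0.118 SE, adjusted p = 0.00623), and was not called without the filter (adjusted p = 0.0539). GABRA3, a receptor subunit for the neurotransmitter GABA whose start lies 247.4 kb from that of MAGEA3, was at 0.714 and 1.00 against 2.30 and 2.34 (1.06 ± 0.154 SE, adjusted p = 0.0124), a call lost without the filter (adjusted p = 0.0799), with a pseudocount of 1 FPKM (0.84), after quantile normalization (0.93) and without TF1-BA replicate 1 (adjusted p = 0.0656) or TF1-BAR replicate 2 (adjusted p = 0.0645). In all 3 the resistant libraries lay above the sensitive ones.

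Not every gene of the region was higher. The centriole gene CETN2 and the cholesterol synthesis gene NSDHL, 132.0 and 132.2 kb from MAGEA3 and chosen after their values were seen, had log2 fold changes of -0.67 and -0.32 with adjusted p of 0.01004 and 0.0365 in limma. GABRQ was at -0.14 with an adjusted p of 0.219. Around PAGE1, 5 other genes were tested and GAGE2A alone was called, while CLCN5 stood at -0.01, CCDC22 at -0.26 and USP27X at 0.60, with adjusted p of 0.924, 0.0795 and 0.0543. Over the X chromosome 512 genes were tested, of which 4.49% were called, and their median log2 fold change was 0.0477.

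**Figure D5:**
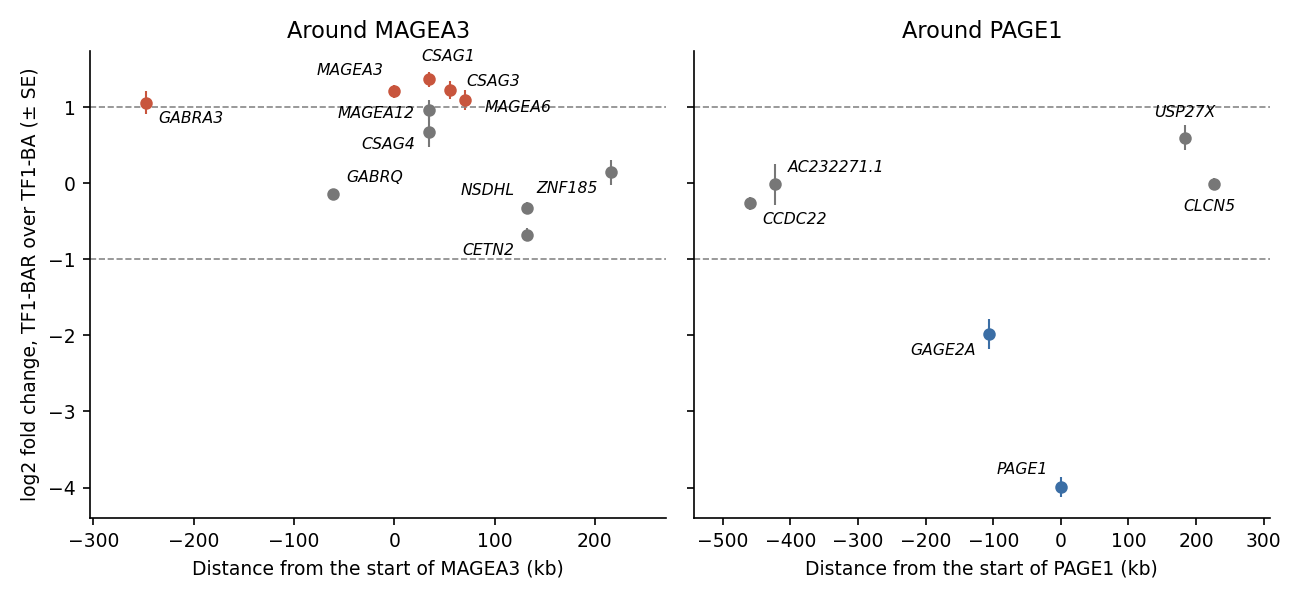
Log2 fold change ± SE (TF1-BAR over TF1-BA) of the genes tested within 500 kb of MAGEA3 (left) and of PAGE1 (right), against the distance of their start from that of the named gene in kb, in red where called higher, blue where called lower and grey otherwise, with dashed lines at 1 and -1. MAGEA3, MAGEA6, CSAG1, CSAG3 and GABRA3 are called higher beside CETN2 and NSDHL at negative values, and around PAGE1 the other 4 genes lie between -0.26 and 0.60.

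Other germline and cancer-testis genes were taken as a comparison. Of 100 symbols on 3 lists, 79 were listed, 30 of these did not exceed 3 fragments in any library, and 31 were tested. 4 were called, the antigens CSAG1 and CSAG3 higher and TEX19 and VCX3A lower, where 4.75% of all genes were called, 3.05% higher and 1.69% lower. The median log2 fold change of the 31 was -0.149. TEX19, which acts in the defence of the germ line against transposons, was at 5.50 and 6.91 FPKM in TF1-BA cells and 1.18 and 1.41 in TF1-BAR cells (log2 fold change -1.89 ± 0.145 SE, adjusted p = 0.0044 in limma). VCX3A, of another X-linked family of near copies, was at 1.62 and 1.88 against 0.128 and 0.188 (-1.77 ± 0.1797 SE, adjusted p = 0.00681), and was not called without TF1-BA replicate 2 (adjusted p = 0.0544). It passed the filter only through TF1-BA cells, so that it had to differ.

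Of the germline lists, the meiosis genes counted 1 called lower, TEX19, of 10 tested, where 4.75% of all genes tested were called. REC8 (0.76) and MSH5 (0.53) were higher at an adjusted p under 0.05, reached by 26.9% of all genes. Limma voom has its own filter and also took in SMC1B, which is not among the 10. It called 4 meiosis genes, REC8 higher and TEX19, SMC1B and MEIOB lower, and 9.63% of all genes. The list of germ cell RNA and piRNA genes had 3 tested, GTSF1, TDRD9 and PIWIL4, with adjusted p of 0.124, 0.296 and 0.469, 0 called by limma or limma voom and 0 with an unadjusted p under 0.05. The other antigens had 9 of 18 with an adjusted p under 0.05 and lower values and 2 with higher ones, where 26.9% of all genes passed in either direction. Apart from VCX3A, ODF2 and COX6B2 these were PBK, TTK, CEP55, NUF2, KNL1 and KIF2C, which act in mitosis and are expressed in dividing cells generally.

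Genes that set, read or remove DNA methylation or act in chromatin silencing were mostly above the filter, with 44 of 45 listed genes tested. TET1, which oxidises methylcytosine, was the single one called, 1 of 44 where 4.75% of all genes tested were called. It was at 3.49 and 3.14 FPKM in TF1-BA cells and 1.54 and 1.24 in TF1-BAR cells, with a log2 fold change of -1.01 ± 0.131 (SE, adjusted p = 0.0103 in limma), and the call was lost in several settings, among them without TF1-BA replicate 1, TF1-BA replicate 2 or TF1-BAR replicate 2 (adjusted p = 0.0731, adjusted p = 0.0619 and log2 fold change -0.90). The methyltransferase gene DNMT3B (0.53) and the repressor gene E2F6 (0.52) were higher and the repressor gene PCGF6 (-0.61) lower at an adjusted p under 0.05. In all, 7 genes were higher and 3 lower at that threshold, 10 of 44 where 26.9% of all genes tested passed it, and the median was 0.0597.

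The broadly expressed MAGE genes, which are not restricted to germ cells, included 5 tested. MAGEH1 was called higher, at 1.33 and 1.64 FPKM in TF1-BA cells and 3.69 and 3.28 in TF1-BAR cells (log2 fold change 1.01 ± 0.130 SE, adjusted p = 0.0103 in limma), a call at the edge of the fold threshold that was lost without TF1-BA replicate 1 (0.90) or TF1-BAR replicate 1 (0.93). MAGED2 (0.63) and MAGEF1 (0.40) had an adjusted p under 0.05, while MAGED1 (-0.11) and NSMCE3 (-0.06) did not. That is 1 of 5 called and 3 of 5 with an adjusted p under 0.05, against 4.75% and 26.9% of all genes tested. Of 7 genes for protein partners, 0 were called by limma or limma voom, although 6 had an unadjusted p under 0.05, as did 42.2% of all genes tested. TRIM28, the partner of MAGEA3, MAGEA6 and MAGEC2, was at 128 and 129 FPKM against 153 and 161 (0.29, adjusted p = 0.0244), RARA at 0.49 (adjusted p = 0.0318), and CUL2, the scaffold of the PRAME ligase, at 18.7 and 16.8 against 9.27 and 9.56 (-0.88, adjusted p = 0.00603). The PRAME-related PRAMEF genes were not analysed here.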

How the data were processed

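The authors sequenced TF1-BA and TF1-BAR cells, 2 libraries each, with a kit that does not mark strand, mapped the reads to GRCh38 and, per the submitters' processing notes, used TopHat2 2.0.13, Cufflinks 2.2.0 and Cuffdiff 2.2.0. They tested differential expression with DESeq2, by the methods of the paper. The values they deposited are FPKM for each gene and library, on a linear scale and not pooled. Which annotation release they used is not given in the sources used here. Of the 32673 gene identifiers 32278 are in GENCODE 44, and 98.6% of those lie on the same chromosome with a start or end within 1 kb.

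Both lines were compared in limma 3.58.1 (lmFit, then eBayes allowing a trend, R 4.3.3) on log2(FPKM + 0.5), over genes with a mean of at least 0.5 FPKM in the 4 libraries, with Benjamini-Hochberg adjustment over the 15519 genes tested and two-sided p-values. Fold changes on this scale understate the change of low genes. With 2 libraries in each line an exact permutation test of a single gene cannot go below p = 0.333, so none was made. The members and the gene lists were chosen with earlier results of these data known. Named are all members above 0, every called gene of each list or else the 3 tested genes of lowest adjusted p, and the called genes within 500 kb of a called member. Other genes named with values were chosen after their values were seen.

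Fragments were recovered as the whole numbers behind the FPKM. Of 30853 genes above 0, the GENCODE 44 exon length gave whole numbers for 14114 and a fitted length for 16738 (tolerance at most 0.0021 fragments), against 0 of 300 tried with wrong sizes. A fitted length leaves the number open to a whole factor. The floor of 3 fragments and the intervals cover counting error only. The replicates of each line differed by more than sampling noise (chi-square of 4.08 and 6.99 per degree of freedom). Sequence sharing was counted as the share of 150-base stretches of a gene's GENCODE 44 transcripts that occur in transcripts of another gene.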

Additional observations from a re-analysis of the deposited data

How the results depend on the processing

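The counts of called genes and the values of 22 genes (the 10 tested cancer-testis genes and the called genes of the lists and neighbourhoods) were recomputed with a pseudocount of 1 or 0.1 FPKM, a mean of at least 1 FPKM or no filter, a common FPKM sum, upper-quartile scaling, quantile normalization, eBayes without the trend or robust, the replicate number as a block, each library left out in turn, the adjusted p alone, and limma voom on recovered fragments with a mean of at least 10. With a pseudocount of 1 FPKM 487 genes were called over all, 0 of the silencing genes and 0 of the broadly expressed MAGE genes (21 and 3 with an unadjusted p under 0.05). Without the filter these counts were 314, 0 and 0 (19 and 3 unadjusted). The common FPKM sum gave 0 silencing genes (19 unadjusted), and upper-quartile scaling and quantile normalization gave 0 broadly expressed MAGE genes each (3 unadjusted). Limma voom called 1524 genes, 7 cancer-testis genes and 9 of the other germline and cancer-testis genes. The adjusted p alone gave 4167 genes, 14 of the other germline and cancer-testis genes, 10 silencing genes and 3 broadly expressed MAGE genes. Leaving out a library gave 429 to 794 genes, 2 to 4 cancer-testis genes, 0 to 1 silencing genes and 0 to 1 broadly expressed MAGE genes. The 2 cancer-testis genes left without TF1-BA replicate 1 were MAGEA3 and PAGE1. PRAME turned to -0.0081 with upper-quartile scaling and -0.0018 with quantile normalization, and ran from -0.039 to 0.075 when a library was left out, below 0 without TF1-BA replicate 1 or TF1-BAR replicate 2. MAGEB2 turned to 0.035 with the common FPKM sum and ran from -0.066 to 0.045 when a library was left out, above 0 without TF1-BA replicate 2 or TF1-BAR replicate 2. Of 320 values of these 22 genes, 279 kept their direction and their side of the call, 31 lost and 3 gained the call, and 7 turned. The counts of neighbours and the share of the X chromosome were not recomputed. The cause of these changes was not tested.

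The replicate numbers are not said to mark shared cultures, and the deviations of same-numbered libraries correlated at 0.0646 over 15519 genes, so the numbers were not taken to pair the libraries. With the replicate block 755 genes were called, 4 cancer-testis genes, 4 of the other germline and cancer-testis genes, 1 silencing gene and 1 broadly expressed MAGE gene, and it changed no call of the 22 genes. With 2 libraries for each line, genes of few fragments such as GAGE2A, MAGEA4 and MAGEC1 are limited by depth.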
